A study of Homo sapiens with 16 samples.

Results

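The 9 transcripts described here encode secreted cytokines of bladder cancer cells, namely IL24, IL1A, IL1B, IL1RN, IL6, IL36G, LIF, IL15 and IL7. They were taken by gene name from a table of 58721 genes, and the set was chosen by a measured value, since IL24 was higher in the SCaBER cell line under both siRNAs against FOXA1. The comparisons of siFOXA1 with siControl in SCaBER are therefore described for these 9 genes with no test. The other comparisons are tested.

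RNA was measured by sequencing of transcript 3' ends in 16 libraries. RT112 is an established line from a bladder tumour, luminal papillary in type and grown in RPMI, and SCaBER is a basal/squamous bladder line grown in DMEM, each with 10% FBS. Cells of both lines were transfected, at 10 nM per the labels, with siControl.1, siControl.2, siFOXA1.1 or siFOXA1.2. FOXA1 is a pioneer transcription factor of luminal urothelial cells. Each siRNA has 2 libraries per line, numbered in the labels as experiment batch replicates 1 and 2. Each line is 1 model and has its own medium, so line and medium cannot be told apart. The labels do not say whether the numbered replicates were separate cultures, so p-values measure the spread between these libraries, which may be technical.

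IL1A and IL1B encode the agonists of the interleukin 1 receptor, and IL1RN encodes the antagonist that occupies the same receptor without activating it. IL36G encodes an epithelial IL1 family agonist. IL6 and LIF encode cytokines that signal through the shared chain gp130, encoded by IL6ST, and through STAT3. IL24 belongs to the IL10 and IL20 family and signals through pairs of receptor chains that include IL20RB. IL7 and IL15 encode growth and survival factors of lymphocytes that epithelial cells can secrete. In basal and squamous epithelium, IL1A, IL1B, IL1RN and IL36G are typical products of keratinocytes.

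The identifiers in the table are ENSG00000162892 for IL24, ENSG00000115008 for IL1A, ENSG00000125538 for IL1B, ENSG00000136689 for IL1RN and ENSG00000136244 for IL6. The other members are ENSG00000136688 (IL36G), ENSG00000128342 (LIF), ENSG00000164136 (IL15) and ENSG00000104432 (IL7). In the RefSeq annotation of GRCh38.p14, IL24 lies at chr1:206897443-206904139 and IL6 at chr7:22727200-22731998. The 4 IL1 family members lie in 1 cluster, with IL1A at chr2:112773925-112784493, IL1B at chr2:112829751-112836779, IL36G at chr2:112978006-112985658 and IL1RN at chr2:113099360-113134014. IL15, IL7 and LIF are on chromosomes 4, 8 and 22.

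Promoters are shown for IL24, on which the set was chosen, for IL6, which had the largest fitted difference between the FOXA1 siRNAs in SCaBER among the 7 members tested, and for IL1A, the member called higher under siFOXA1.1 in RT112. They are RefSeq sequences of GRCh38.p14, 5′ to 3′, from 250 bases before to 50 bases after an annotated start. Capitals mark matches on either strand to any of 4 motifs: forkhead (TGTTTAC), AP-1 (TGANTCA), NF-kB (GGGANTTTC) and an interferon-stimulated response element (GAAANNGAA). IL1A has a further annotated start in the table, which is not printed.
IL24, chr1:206897193-206897492, plus strand: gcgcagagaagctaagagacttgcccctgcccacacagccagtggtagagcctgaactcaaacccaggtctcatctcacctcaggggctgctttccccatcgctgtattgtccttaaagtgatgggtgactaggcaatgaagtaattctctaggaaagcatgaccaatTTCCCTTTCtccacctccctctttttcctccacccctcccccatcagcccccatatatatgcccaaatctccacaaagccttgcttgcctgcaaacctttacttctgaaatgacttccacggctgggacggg
IL6, chr7:22726950-22727249, plus strand: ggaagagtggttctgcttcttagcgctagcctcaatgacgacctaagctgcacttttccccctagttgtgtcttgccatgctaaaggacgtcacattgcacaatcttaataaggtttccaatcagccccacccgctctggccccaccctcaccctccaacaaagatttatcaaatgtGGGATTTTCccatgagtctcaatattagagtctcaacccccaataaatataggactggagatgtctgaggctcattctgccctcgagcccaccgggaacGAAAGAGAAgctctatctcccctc
IL1A, chr2:112784444-112784743, minus strand: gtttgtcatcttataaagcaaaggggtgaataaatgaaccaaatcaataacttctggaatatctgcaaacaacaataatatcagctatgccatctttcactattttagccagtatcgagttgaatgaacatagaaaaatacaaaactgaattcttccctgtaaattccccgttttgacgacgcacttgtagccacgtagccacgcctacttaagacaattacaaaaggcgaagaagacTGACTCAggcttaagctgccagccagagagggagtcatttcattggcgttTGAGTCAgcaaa
The forkhead letters were in none of the 9 windows of the 6 members in the table (IL24, IL1A, IL1B, IL1RN, IL6 and IL36G), against 3.42% of all 35116 windows of this length. The IL24 window held 1 match to the interferon-stimulated response element, at positions -82 to -74 from the start, a motif in 8.11% of all windows. In IL6 the NF-kB letters were at -73 to -65, a match present in 1.28% of all windows. IL1A held the AP-1 letters 2 times in the window shown, at -12 to -6 and at 38 to 44, against 7.71% of windows with at least 1 match. A match is a description of letters and was not linked to any measurement here.

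Library totals ranged from 4528513 to 7604581 counts. Values are given as CPM, which are counts scaled to a common library total, and a limit of 3 counts corresponds to 0.394 to 0.453 CPM in RT112 and 0.434 to 0.662 CPM in SCaBER. This limit covers counting error only. The luminal label of RT112 went with GATA3 at 440.1 CPM ± 18.3 and FOXA1 at 27.8 CPM ± 6.98 under siControl (SD, n = 4). The basal label of SCaBER went with KRT6A at 915 CPM ± 294 and KRT14 at 544 CPM ± 178 under siControl (SD, n = 4). Of 10 luminal markers 8 were tested, with 0 higher and 8 lower in SCaBER, of 10 basal markers 8 were higher and 1 lower, and of 2 fibroblast markers tested 0 were higher and 1 lower (edgeR). Among the luminal markers called, UPK1A and FOXA1 passed the filter through RT112 alone and so had to be lower in SCaBER. Of the basal markers called higher, KRT6A passed it through SCaBER alone, so nothing is read from its call. KRT20, a luminal marker, was at 0 in all siControl libraries of both lines. The mitochondrial share of counts in RT112 was 27.0% ± 1.77 with siFOXA1.1 and averaged between 18.5% and 20.7% with the other siRNAs (SD, n = 2), and the part of this difference in the RT112 results was not tested. Of 8 leukocyte markers, PTPRC and CD3E were at 0 in every library, and the 8 markers summed to 0 to 0.263 CPM in RT112 siControl, 0.137 to 7.91 CPM in RT112 siFOXA1, 0.162 to 4.21 CPM in SCaBER siControl and 4.47 to 7.95 CPM in SCaBER siFOXA1. CSF1R averaged 2.01 CPM in RT112 siFOXA1 and 0 in RT112 siControl, and CD14 averaged 2.33 CPM in SCaBER siFOXA1 and 0.926 CPM in SCaBER siControl. The part of these transcripts in the results was not tested.

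FOXA1 itself fell in RT112 under siFOXA1.1, from 27.8 CPM ± 6.98 in the siControl libraries (n = 4) to 2.28 CPM ± 1.36 (SD, n = 2). The change was -3.44 on the log2 scale (SE 0.47, adjusted p = 2.19e-05 by edgeR's quasi-likelihood test). Under siFOXA1.2 it was 12.6 CPM ± 4.81, a log2 change of -1.10 (SE 0.39) that did not pass the test (adjusted p = 0.205). FOXA1 was scarce throughout the SCaBER libraries. The counts were 3 and 4 under siControl.1, 15 and 9 under siControl.2, 0 and 3 under siFOXA1.1, and 0 and 6 under siFOXA1.2. Only the siControl.2 libraries stood clear of the limit, so the extent of the knock-down in SCaBER was not measurable at this depth.

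The clearest pattern among the cytokines was the difference between the lines without FOXA1 siRNA. IL24, IL6, IL36G and IL7 had 0 counts in all 8 RT112 libraries, under every siRNA, and were counted in SCaBER. IL1A and IL1B were higher in SCaBER, and IL1RN was lower. Of the 9 members, 4 passed the filter on low counts in this comparison. All 4 were called by edgeR, where 43.4% of all 12309 genes tested were called. IL1RN would have passed the filter through either line. IL1A, IL1B and IL6 passed it through SCaBER alone, which favours a higher level there. IL6, at 0 in RT112, had to differ. Nothing is read from the calls of IL1A, IL1B and IL6 in this fit.

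IL1A, the agonist stored in epithelial cells and released on damage, had 241 and 423 counts under siControl.1 and 205 and 139 under siControl.2 in SCaBER, against 9 and 0, and 3 and 25, in RT112. All 4 SCaBER libraries were above all 4 RT112 libraries. The log2 difference was 5.04 (SE 0.62), which is 32.8-fold. In a fit without the filter, which its counts in either line would have entered, IL1A was called by edgeR (5.04, SE 0.38). IL1B, the agonist cleaved by the inflammasome, had 181 and 329 counts under siControl.1 and 121 and 121 under siControl.2 in SCaBER, against 41 and 59, and 5 and 23, in RT112. The groups did not overlap, and the log2 difference was 2.79 (SE 0.54), a 6.91-fold higher level in SCaBER. IL1B too was called by edgeR without the filter (2.80, SE 0.36). How many of all genes separated the lines without overlap, as IL1A and IL1B did, was not counted.

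IL1RN, the antagonist, went the other way. In RT112 it was at 57.7 and 52.7 CPM under siControl.1 but at 19.0 and 20.01 CPM under siControl.2, and in SCaBER it was at 13.1 and 20.1, and at 14.1 and 23.6 CPM. The RT112 siControl.2 libraries lay within the range of SCaBER, so the separation of the lines came from siControl.1. The log2 difference was -1.11 (SE 0.37, adjusted p = 0.0268 by edgeR), and it passed the threshold in 10 of 15 alternative analyses. It missed it with limma on TPM (-0.52, adjusted p = 0.261) and by edgeR without RT112 siControl.1 replicate 1 (-0.82, adjusted p = 0.109), RT112 siControl.1 replicate 2 (-0.88, adjusted p = 0.0922), SCaBER siControl.1 replicate 1 (-0.98, adjusted p = 0.0809) or SCaBER siControl.2 replicate 1 (-1.001, adjusted p = 0.0735).

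Per length, in the deposited TPM, the IL1 transcripts differed in their balance between the lines. IL1RN made up 69.7% to 93.5% of the summed TPM of IL1A, IL1B and IL1RN in the RT112 siControl libraries (median 86.7%), and 11.5% to 23.9% in those of SCaBER (median 14.4%). The summed TPM itself was 12.7 to 38.2 in RT112 and 66.3 to 142.6 in SCaBER. Under siFOXA1 the IL1RN share was 53.1% to 84.8% in RT112 and 4.52% to 16.7% in SCaBER, and in each line these ranges overlapped those of the controls. Reads of transcript ends do not grow with transcript length, so TPM weights short transcripts up.

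**Figure D1:**
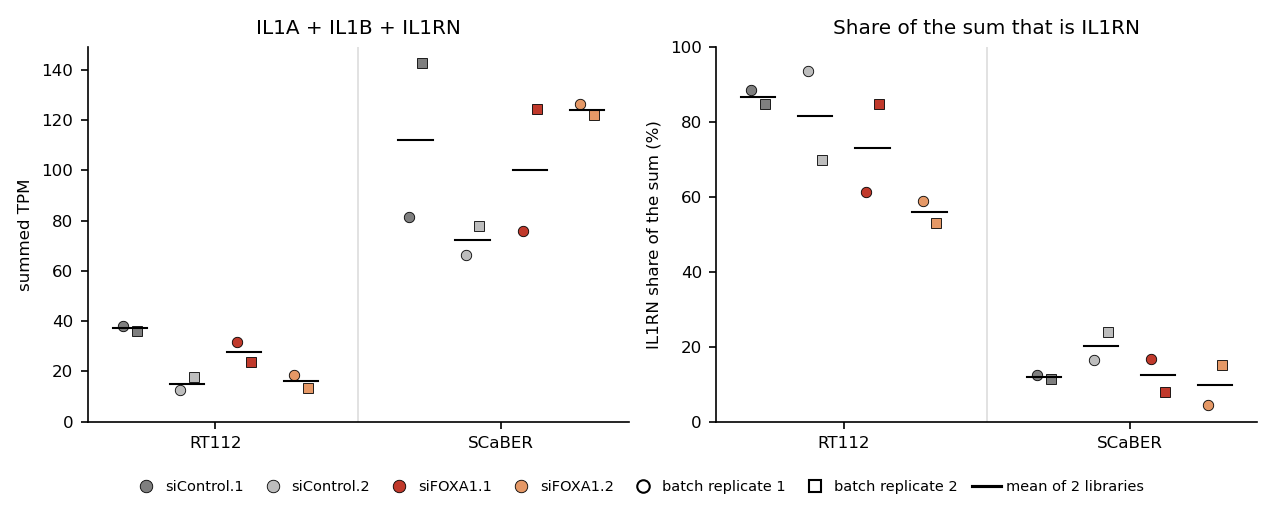
The left plot gives the summed TPM of IL1A, IL1B and IL1RN in each library, and the right plot gives the percent of that sum that is IL1RN, by line and siRNA; points are libraries, shapes are batch replicates and bars are means of 2. All RT112 libraries lie at or above 53.1% IL1RN and all SCaBER libraries at or below 23.9%.

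IL6 had 47 and 43 counts under siControl.1 and 14 and 11 under siControl.2 in SCaBER. Over the group that was 4.97 CPM, at least 47.99-fold higher than a limit of 3 counts over the 4 RT112 libraries (0.104 CPM). IL24 had 14, 47, 7 and 16 counts in the same SCaBER libraries, at least 35.05-fold above that limit, IL7 had 11, 24, 13 and 0 counts, at least 20.03-fold above it, and IL36G had 6, 12, 0 and 0 counts, at least 7.51-fold above it. IL36G was counted only under siControl.1 among the SCaBER controls. IL15 had 14, 84, 1 and 20 counts in SCaBER against 11, 2, 0 and 0 in RT112, so its groups overlapped. LIF was close to the limit in both lines, with 0, 7, 5 and 3 counts in SCaBER and 1, 0, 1 and 7 in RT112. These 5 members did not pass the filter. In a fit without the filter IL15 (adjusted p = 0.00339) was called by edgeR and LIF (0.715) was not. IL24 and IL7 were also called there and IL36G was not. With 0 counts in RT112 they entered that fit through SCaBER alone, so nothing is read from their tests.

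By mean TPM over the 4 SCaBER siControl libraries, the order was IL1A (51.5 ± 20.99), IL1B (26.6 ± 12.1), IL1RN (14.0 ± 4.18), IL6 (5.95 ± 3.55), IL24 (4.70 ± 3.65), IL15 (1.67 ± 1.92), IL7 (1.46 ± 1.1995), IL36G (1.35 ± 1.72) and LIF (0.418 ± 0.306; SD, n = 4). From IL6 downwards each neighbouring pair differed by less than the larger of its SDs. In RT112 siControl the order was IL1RN (22.2 ± 11.7), IL1B (2.82 ± 2.12), IL1A (1.18 ± 1.46), LIF (0.155 ± 0.225) and IL15 (0.105 ± 0.167; SD, n = 4), with the other 4 members at 0. The order of the lower members depends on the scale, since reads of transcript ends do not follow the length that TPM divides by. In CPM over the SCaBER controls IL15 (5.15) was above IL6 (4.97) and IL24 (3.63), and over the RT112 controls IL15 (0.449) was above LIF (0.311).

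**Figure D2:**
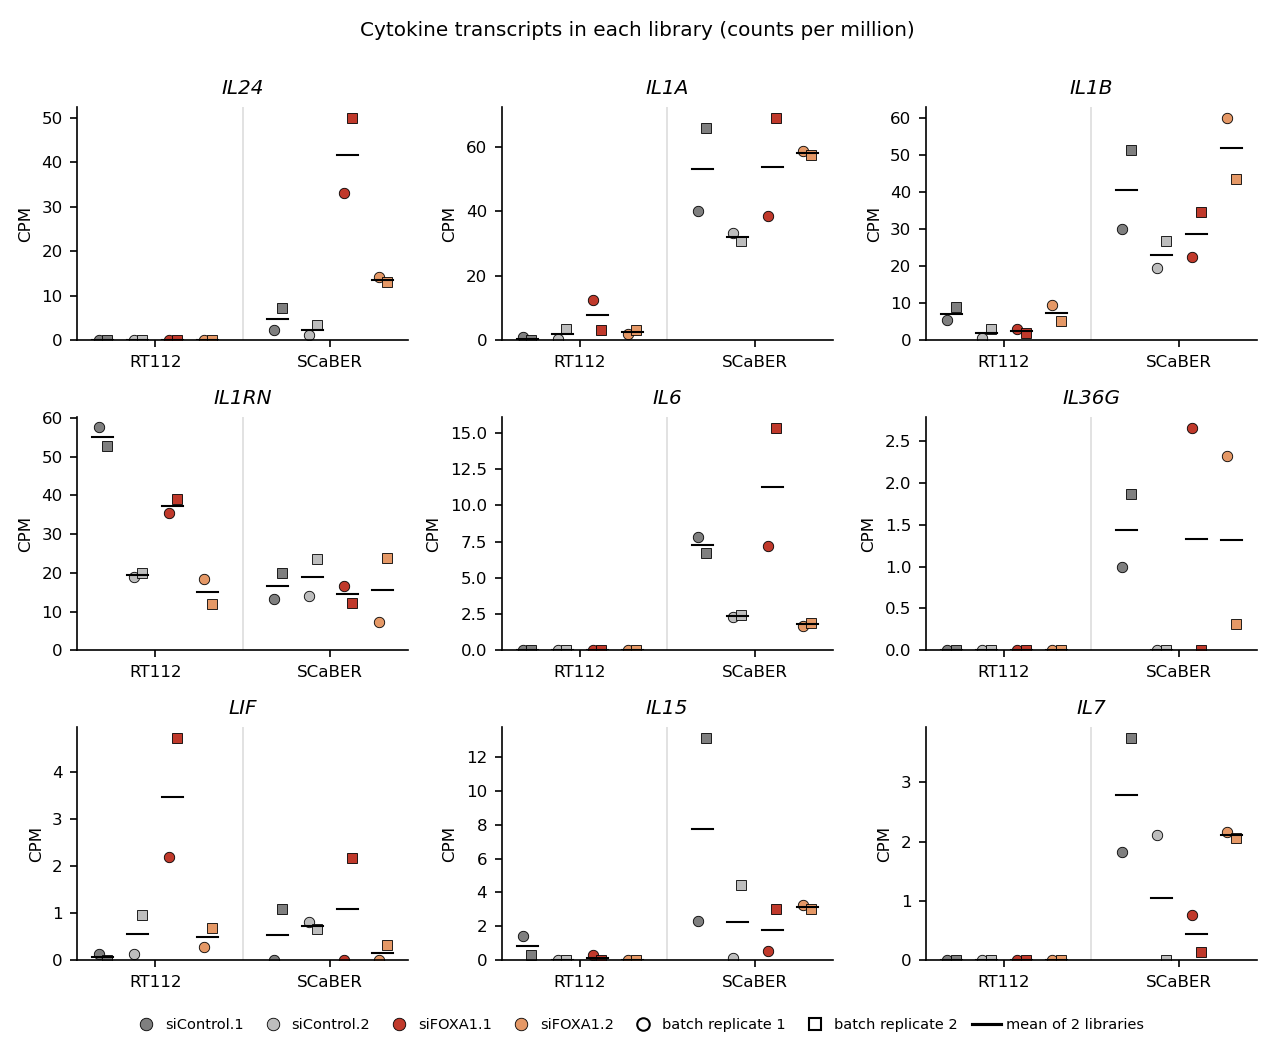
CPM of the 9 cytokine transcripts in each of the 16 libraries, by line and siRNA; points are libraries, shapes are batch replicates and bars are means of 2 libraries. IL24, IL6, IL36G and IL7 lie at 0 in all 8 RT112 libraries, and IL24 in SCaBER is highest under siFOXA1.1, at 33.1 and 49.9 CPM.

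The receptors and response genes of these cytokines also differed between the lines. As with IL6, a gene that passed the filter through 1 line alone had to differ. Among the genes named below, this held through SCaBER for IL1R2, IL1RL2, IL1R1, LIFR, IL6R, IL11, IL20RB, IL7R, STAT5A, CXCL1, CXCL3 and CXCL8. It held through RT112 for IL20RA. The counts of higher and lower genes include such genes, and nothing is read from their calls. Of 18 genes for IL1 family receptors and proximal signalling, 14 were tested, 6 were higher in SCaBER and 0 lower (median log2 difference 0.16, against -0.02 for all genes). IL1R2, the decoy receptor, and IL1RL2, the receptor of the IL36 cytokines, had 0 counts in the RT112 siControl libraries and were at 8.78 and 7.31 CPM over the SCaBER ones, at least 84.7-fold and 70.5-fold higher than the limit. IL1R1, the signalling receptor, was higher by 3.51 (SE 0.82).

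Of 14 genes for IL6 family receptors and signalling, 13 were tested, 6 were higher and 2 lower in SCaBER (median 0.96). LIFR, the LIF receptor, was at 31.9 CPM over the SCaBER controls and had 3 counts in those of RT112. IL6ST was higher by 3.53 (SE 0.24, adjusted p = 2.82e-08 by edgeR) and IL6R, the ligand-binding chain for IL6, by 3.07 (SE 0.51). Among 8 other IL6 family ligands, 4 were tested. IL11 was higher by 3.04 (SE 0.99).

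For IL24, the receptor chains differed in opposite directions. IL20RB was higher in SCaBER by 5.58 (SE 0.65) and IL20RA was lower by a log2 difference of -3.66 (SE 0.40). IL22RA1 was higher by 1.40 (SE 0.52, adjusted p = 0.0426 by edgeR). The IL22RA1 call was kept in 7 of 15 alternatives. It was lost with the replicate block (1.44, adjusted p = 0.0522), without the filter (adjusted p = 0.0772) and without any 1 of 6 libraries, with adjusted p up to 0.139 without SCaBER siControl.1 replicate 1. Those without which it stayed called were SCaBER siControl.1 replicate 2 and RT112 siControl.1 replicate 2. These were the 3 tested of 10 genes in that list. IL7R, the receptor of IL7, was at 280.8 CPM over the SCaBER controls and at 0.415 CPM over those of RT112, a log2 difference of 9.29 (SE 0.40). With STAT5A (3.98, SE 0.75) and STAT5B (1.14, SE 0.25) it made 3 genes higher of 5 tested in a list of 11.

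Of 15 early response genes of IL1 and IL6, 11 were tested, 8 were higher in SCaBER and 1 lower (median 1.89). CXCL1, a neutrophil chemokine, was at 219 CPM over the SCaBER controls and 0 in RT112, at least 2113-fold higher. CXCL3 was at least 46.3-fold higher, and CXCL8 was higher by 5.42 (SE 0.68). Of 6 factors of cytokine mRNA decay, 5 were tested, 2 were higher (KHSRP by 0.61, SE 0.16, and HNRNPD by 0.45, SE 0.13) and ZFP36L2 was lower (-2.52, SE 0.19, adjusted p = 5.87e-08 by edgeR). None of the 8 other IL1 family ligands and antagonists was called among the 2 tested. As 43.4% of all genes were called in this comparison, these counts are given as a description of each list.

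In SCaBER, IL24 was higher under each FOXA1 siRNA than under either control. It had 175 and 345 counts under siFOXA1.1 and 92 and 83 under siFOXA1.2, against 14 and 47 under siControl.1 and 7 and 16 under siControl.2. In CPM that was 33.1 and 49.9, 14.2 and 13.2, 2.33 and 7.33, and 1.14 and 3.53. All 4 siFOXA1 libraries were above all 4 siControl libraries, which held for IL24 alone among the members and for 2.43% of the 11902 genes tested in SCaBER. This is the pattern on which the members were chosen.

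Against both controls the log2 difference of IL24 was 3.67 (SE 0.48) for siFOXA1.1 and 2.06 (SE 0.49) for siFOXA1.2, comparisons that share their control libraries. With both siRNAs pooled it was 2.96 (SE 0.56). Within batch replicate 1 the siFOXA1.1 library was 19.1-fold and the siFOXA1.2 library 8.19-fold above the mean of the 2 control libraries. Within batch replicate 2 the ratios were 9.19 and 2.42, since both controls were higher there (7.33 and 3.53 CPM, against 2.33 and 1.14 CPM). The siControl.1 libraries were above the siControl.2 library of their batch in both batches. With siControl.1 alone as the control the log2 differences were 3.13 and 1.53, and with siControl.2 alone 4.21 and 2.602.

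The difference between the FOXA1 siRNAs was tested. IL24 was higher under siFOXA1.1 than under siFOXA1.2 by 1.61 (SE 0.56), with a 95% interval of 0.06 to 3.15, and did not pass the threshold (adjusted p = 0.123 by edgeR, 0.0408 without the filter). The 2 siFOXA1.1 libraries were above the 2 siFOXA1.2 libraries. In RT112 the count of IL24 was 0 in all 4 siFOXA1 libraries, which allows up to 0.442 CPM in the shallowest of them, so no change was detectable there at this depth.

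For the IL24 receptor chains in SCaBER, IL20RB was at 48.9 and 48.01 CPM under siFOXA1.1 and at 28.9 to 39.8 CPM under the controls. That was a log2 difference of 0.56 (SE 0.24), which was not called (adjusted p = 0.182 by edgeR). Under siFOXA1.2 the IL20RB difference was -0.004 (SE 0.25). IL20RA and IL22RA1 differed from the controls under siFOXA1.1 by -0.76 (SE 1.34) and 0.36 (SE 0.62). The genes most like IL24 over the 8 SCaBER libraries, by Pearson's r of log2 CPM among 11902 genes, were LETM2 (0.969), TRANK1 (0.962), SNX10 (0.959), ABCA5 (0.959) and LEPROT (0.957). Over all 16 libraries, as deviations from the line mean among 13701 genes, they were MAGEA11 (0.951), LOX (0.911) and HEPHL1 (0.895). As IL24 was at 0 throughout RT112, all its spread there too came from the 8 SCaBER libraries. These are descriptions over libraries that share siRNAs and batches.

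IL6 did not overlap between the FOXA1 siRNAs in SCaBER. It had 38 and 106 counts under siFOXA1.1 (7.20 and 15.3 CPM) and 11 and 12 under siFOXA1.2 (1.70 and 1.90 CPM), against 47 and 43 under siControl.1 (7.82 and 6.70 CPM) and 14 and 11 under siControl.2 (2.27 and 2.43 CPM). The siFOXA1.1 libraries thus overlapped the siControl.1 libraries, and the siFOXA1.2 libraries lay just under siControl.2. Against both controls the log2 differences were 1.46 (SE 0.64) and -1.17 (SE 0.73). Between siFOXA1.1 and siFOXA1.2 the difference was 2.63 (SE 0.82), with a 95% interval of 0.36 to 4.91 and an adjusted p of 0.0860 by edgeR. It passed with DESeq2 (adjusted p = 0.0138) and with limma on TPM (0.0454). Between siControl.1 and siControl.2, IL6 differed by 1.61 (SE 0.80, adjusted p = 0.788 by edgeR).

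For the agonists IL1A and IL1B in SCaBER the targets overlapped. IL1A was at 38.6 and 68.8 CPM under siFOXA1.1 and 58.8 and 57.5 CPM under siFOXA1.2, against 40.1 and 65.9, and 33.3 and 30.7 CPM, under siControl.1 and siControl.2. IL1B was at 22.5 and 34.7 CPM, and 60.0045 and 43.6 CPM, against 30.1 and 51.3, and 19.6 and 26.7 CPM. For both genes the siFOXA1 libraries overlapped siControl.1. The log2 differences from the controls were 0.41 (SE 0.28) and 0.52 (SE 0.28) for IL1A, and -0.07 (SE 0.31) and 0.78 (SE 0.30) for IL1B. IL1RN was at 16.7 and 12.3 CPM under siFOXA1.1 and at 7.25 and 23.9 CPM under siFOXA1.2, against a control range of 13.1 to 23.6 CPM. The first siFOXA1.2 library was thus below every control and the second above every one. Its log2 differences were -0.25 (SE 0.48) and -0.16 (SE 0.47).

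The lymphoid growth factors and the low members had few counts in SCaBER, and their targets overlapped. IL15 had 3 and 21 counts under siFOXA1.1 and 21 and 19 under siFOXA1.2. IL7 had 4 and 1 counts under siFOXA1.1 and 14 and 13 under siFOXA1.2, against 0 to 24 under the controls. IL36G had 14 and 0, and 15 and 2, and LIF had 0 and 15, and 0 and 2. IL36G and LIF did not pass the filter. Over all 11902 genes tested in SCaBER, 9.26% were called by edgeR for siFOXA1.1 against both controls, 0.042% for siFOXA1.2 and 0.0084% for both siRNAs pooled, and members are not counted in these comparisons because they chose the set. Between siFOXA1.1 and siFOXA1.2, 0 of the 7 members tested were called by edgeR (1 by DESeq2 and 1 by limma, IL6 in each), where 4.85% of all genes were, and 3 (IL24, IL6 and IL1B) had an unadjusted p under 0.05. Between the control siRNAs 0 of 7 were called by edgeR and 0 by DESeq2, where 0.0672% of genes were, and 2 (IL1A and IL1B) had an unadjusted p under 0.05.

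Other genes of the IL6 and IL7 pathways differed between the FOXA1 siRNAs in SCaBER. IL6R was at 68.9 and 65.9 CPM under siFOXA1.1, at 14.4 and 16.2 CPM under siFOXA1.2 and at 19.4 to 22.6 CPM under the controls. Between the FOXA1 siRNAs that was 2.16 on the log2 scale (SE 0.32, adjusted p = 0.00131 by edgeR). IL11 was at 28.8 and 41.1 CPM under siFOXA1.1, at 3.70 and 5.23 CPM under siFOXA1.2 and at 3.09 to 5.35 CPM under the controls, a difference of 2.97 (SE 0.55, adjusted p = 0.00634 by edgeR). The IL11 call was lost without siFOXA1.2 replicate 1 (adjusted p = 0.116) or replicate 2 (adjusted p = 0.0572). IL7R was at 552 and 589 CPM under siFOXA1.1 and at 203 and 187 CPM under siFOXA1.2, with controls from 208 to 343 CPM, and differed by 1.56 (SE 0.19, adjusted p = 0.00026 by edgeR). CEBPD, a transcription factor of the acute phase response, was lower under siFOXA1.1 by a log2 difference of -1.09 (SE 0.21, adjusted p = 0.00764 by edgeR), a call also lost without siFOXA1.2 replicate 1 (adjusted p = 0.0915) or replicate 2 (adjusted p = 0.0865). These were the 4 genes of the 8 pathway lists called between the FOXA1 siRNAs, where 4.85% of all genes were. Against both controls, 6 genes of the 8 lists were called in SCaBER for siFOXA1.1, where 9.26% of all genes were, and 0 for siFOXA1.2, where 0.042% were. The counts are given as a description of the lists. IL11 (3.08, SE 0.44), IL6R (1.71, SE 0.25) and IL7R (1.11, SE 0.16) rose and CEBPD fell (-0.89, SE 0.19). Each was called by edgeR and in 17 of 17 alternatives, which include DESeq2 and limma. PTGS2, the inducible cyclooxygenase, was at 13.1 and 20.4 CPM under siFOXA1.1, at 5.40 and 4.12 CPM under siFOXA1.2 and at 1.62 to 4.42 CPM under the controls, and rose under siFOXA1.1 by 2.56 (SE 0.61, adjusted p = 0.0166 by edgeR). That call was lost without siControl.2 replicate 1 (adjusted p = 0.0767) or siFOXA1.1 replicate 2 (adjusted p = 0.131), and with siControl.1 alone (adjusted p = 0.0615) or siControl.2 alone (adjusted p = 0.0694). IRAK4, a kinase of the IL1 receptor, rose by 1.29 (SE 0.34, adjusted p = 0.0274 by edgeR), a call kept in 11 of 17 alternatives. It was lost with limma (adjusted p = 0.107), with siControl.1 alone (adjusted p = 0.193) and without either siControl.1 library, siControl.2 replicate 1 or siFOXA1.1 replicate 2 (0.91 to 1.33, adjusted p = 0.0545 to 0.229).

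**Figure D3:**
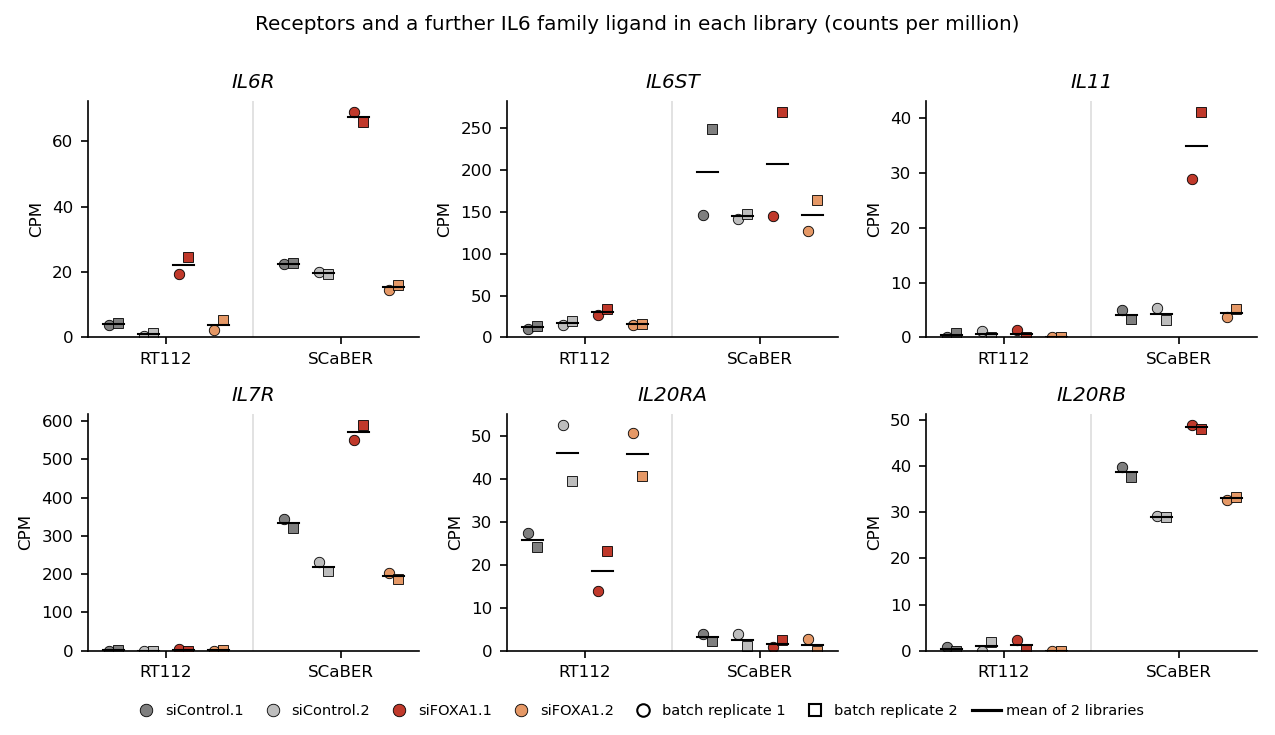
CPM of IL6R, IL6ST, IL11, IL7R, IL20RA and IL20RB in each of the 16 libraries, by line and siRNA; points are libraries, shapes are batch replicates and bars are means of 2 libraries. IL6R is highest under siFOXA1.1 in both lines, at 19.5 and 24.6 CPM in RT112 and 68.9 and 65.9 CPM in SCaBER.

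In RT112 only IL1A, IL1B and IL1RN passed the filter. IL1A rose under siFOXA1.1, but 1 library carried most of the difference. It had 86 and 22 counts under siFOXA1.1 (12.6 and 3.24 CPM), 13 and 24 under siFOXA1.2 (1.89 and 3.28 CPM), 9 and 0 under siControl.1 (1.18 and 0 CPM) and 3 and 25 under siControl.2 (0.399 and 3.47 CPM). The second siFOXA1.1 library lay below the second siControl.2 library. The log2 change was 2.97 (SE 1.04, adjusted p = 0.036 by edgeR), and it was 1 of the 3 members tested, where 32.6% of the 11986 genes were called. IL1A passed the filter through the siFOXA1 libraries alone, which favours a rise, so nothing is read from this call by itself. The fit without the filter was among the alternatives that kept the call.

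That call was kept in 9 of 17 alternatives. It was lost with the batch replicate as a block (2.89, adjusted p = 0.0640 by edgeR), with limma on TPM (1.77, adjusted p = 0.0516), with siControl.1 alone (3.76, adjusted p = 0.0526) and with siControl.2 alone (2.18, adjusted p = 0.226). It was also lost without siFOXA1.1 replicate 1 (1.73, adjusted p = 0.407), siControl.2 replicate 1 (2.55, adjusted p = 0.118), siControl.1 replicate 2 (2.49, adjusted p = 0.107) or siFOXA1.2 replicate 2 (2.96, adjusted p = 0.0530, all by edgeR). Within batch replicate 1 the siFOXA1.1 library was 15.9-fold above the mean of the controls, and within batch replicate 2 it was 1.87-fold above. For siFOXA1.2 the change was 1.27 (SE 1.07, adjusted p = 0.738 by edgeR).

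IL1RN in RT112 differed between siRNAs of the same target as much as between targets. It was at 57.7 and 52.7 CPM under siControl.1, 35.6 and 39.0 under siFOXA1.1, 19.0 and 20.01 under siControl.2, and 18.4 and 11.9 under siFOXA1.2. The 4 siRNAs formed a series in which siFOXA1.1 lay between the controls. Between the control siRNAs the log2 difference was 1.56 (SE 0.29, adjusted p = 0.0059 by edgeR), 1 of the 3 members tested, where 2.36% of genes were called. It was kept in 11 of 15 alternatives and lost without any 1 of the 4 control libraries.

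Between siFOXA1.1 and siFOXA1.2 the IL1RN difference was 1.42 (SE 0.29, adjusted p = 0.00142 by edgeR), again 1 of 3 members, where 28.1% of genes were called, and it was kept in 15 of 15 alternatives. Against both controls IL1RN fell under siFOXA1.2 (-1.10, SE 0.26, adjusted p = 0.0357 by edgeR), the 1 member of 3 called, where 2.04% of genes were. Against siControl.2 alone that change was -0.32 (adjusted p = 0.821), and the call was kept in 9 of 17 alternatives, being lost with limma on TPM (adjusted p = 0.0641) and without any 1 of the 6 siControl and siFOXA1.2 libraries (-1.45 to -0.82, adjusted p = 0.0768 to 0.431). Under siFOXA1.1 IL1RN changed by 0.32 against both controls (SE 0.24, adjusted p = 0.341), by -0.46 against siControl.1 alone (adjusted p = 0.250) and by 1.102 against siControl.2 alone (adjusted p = 0.00802, all by edgeR). The direction of the siFOXA1.1 difference thus depended on which control was used, whereas the siFOXA1.2 libraries were lower than either control, by -1.88 against siControl.1 alone.

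IL1B in RT112 was at 3.08 and 1.92 CPM under siFOXA1.1, 9.47 and 5.19 under siFOXA1.2, 5.39 and 8.91 under siControl.1, and 0.665 and 3.20 under siControl.2, and the targets overlapped. Its log2 changes were -0.44 (SE 0.80, adjusted p = 0.719) and 1.00 (SE 0.74, adjusted p = 0.679, both by edgeR). With both FOXA1 siRNAs pooled 0 of the 3 members were called by edgeR and 0 by DESeq2, where 0.108% of genes were, and 0 had an unadjusted p under 0.05.

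**Figure D4:**
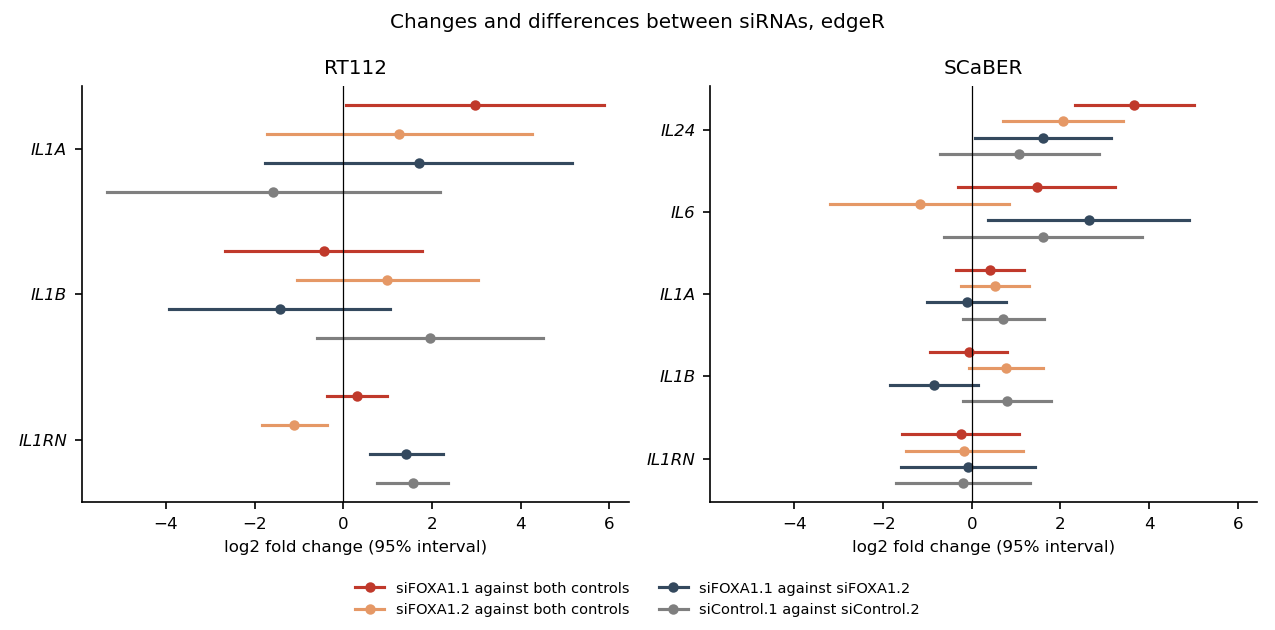
Log2 fold changes from edgeR with 95% intervals (residual degrees of freedom) for members in RT112 (left) and SCaBER (right), in 4 comparisons per gene; points are estimates and lines are intervals. In SCaBER the comparisons with the controls are descriptive, since they chose the members. For IL1RN in RT112 the difference between the control siRNAs, 1.56, is as large as that between the FOXA1 siRNAs, 1.42.

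LIF, IL15 and the members at 0 were not tested in RT112. LIF had 15 and 32 counts under siFOXA1.1 (2.20 and 4.71 CPM), 2 and 5 under siFOXA1.2, 1 and 0 under siControl.1 and 1 and 7 under siControl.2. Both siFOXA1.1 libraries were above the other 6. With the filter set per siRNA the log2 change was 4.11 (SE 1.66, adjusted p = 0.0705 by edgeR), short of the threshold. IL15 had 2 and 0 counts under siFOXA1.1 and 0 and 0 under siFOXA1.2, against 11, 2, 0 and 0 under the controls.

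Receptors of these ligands also changed under siFOXA1.1 in RT112, where 6 of 8 luminal markers tested fell and 0 rose. The markers that fell include FOXA1, the target of the siRNA. Of 11 tested genes for IL6 family receptors and signalling, 6 rose and 1 fell under siFOXA1.1, where 32.6% of all genes were called (median 0.66, against -0.01 for all genes). IL6R was at 0.532 to 4.38 CPM under the controls and rose to 19.5 and 24.6 CPM, a log2 change of 3.67 (SE 0.53). Under siFOXA1.2 it was at 2.33 and 5.33 CPM. IL6R passed the filter through the siFOXA1 libraries alone, which favours a rise, so nothing is read from its call in that fit. It was also called without the filter, 1 of 17 alternatives that all called it. Between siControl.1 and siControl.2, IL6R differed by 2.22 (SE 0.71, adjusted p = 0.126 by edgeR). IL6ST rose by 1.21 (SE 0.30, adjusted p = 0.00472), and JAK1, the kinase bound to these chains, fell by 1.12 (SE 0.16, adjusted p = 3.29e-05, both by edgeR). The IL6ST call was lost with limma (0.70, adjusted p = 0.0685), with siControl.2 alone (0.97, adjusted p = 0.0533) and without siFOXA1.1 replicate 2 (1.01, adjusted p = 0.0547). STAT5B, a signal transducer of the IL7 and IL15 receptors, fell by 2.40 (SE 0.57, adjusted p = 0.00313 by edgeR), the only gene called of the 3 tested in its list.

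Among the other lists in RT112 under siFOXA1.1, IL20RA fell by 0.76 (SE 0.28, adjusted p = 0.0428 by edgeR), a call kept in 9 of 17 alternatives and lost with the replicate block (-0.75, adjusted p = 0.0540), with siControl.1 alone (-0.37, adjusted p = 0.417) and without any 1 of 6 of the 8 libraries (all but replicate 2 of siControl.2 and of siFOXA1.1; adjusted p = 0.0528 to 0.324). IRAK1, a kinase of the IL1 receptor, fell by 0.56 (SE 0.16, adjusted p = 0.0125). The IRAK1 call was lost with siControl.2 alone (-0.27, adjusted p = 0.319), without siFOXA1.1 replicate 2 (-0.42, adjusted p = 0.124) and without siControl.1 replicate 1 (-0.48, adjusted p = 0.0563). Of 8 tested early response genes, NFKBIA, the inhibitor of NF-kB, rose by 0.58 (SE 0.13, adjusted p = 0.00217) and NFKBIZ fell by 1.06 (SE 0.20, adjusted p = 0.000508), the first of which was lost with limma (0.26, adjusted p = 0.143). Of 5 tested mRNA decay factors 4 fell, where 32.6% of all genes were called, among them ZFP36L2 by 0.82 (SE 0.13), ELAVL1 by 0.81 (SE 0.18) and KHSRP by 0.50 (SE 0.10, all by edgeR). Of 3 tested IL1 family ligands other than the members, 0 were called. For siFOXA1.2 in RT112, 0 genes of the 8 lists were called.

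The difference of the siRNA effects between the lines could be estimated for IL1A, IL1B and IL1RN, since the others were at or near 0 in RT112. It includes the SCaBER comparison and is given with no test. For siFOXA1.1, SCaBER minus RT112, it was -2.53 (SE 0.85) for IL1A, 0.38 (SE 0.67) for IL1B and -0.56 (SE 0.55) for IL1RN. For siFOXA1.2 it was -0.73 (SE 0.89), -0.22 (SE 0.62) and 0.93 (SE 0.55). Over all 13701 genes tested, the difference was called by edgeR for 3.14% with siFOXA1.1 and 0.0438% with siFOXA1.2, and members are not counted.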

How the data were processed

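RNA was measured by 3' mRNA sequencing in 16 libraries. Per the labels and the deposited pipeline configuration, the authors trimmed reads with TrimGalore 0.6.2 (minimum quality 20, minimum length 10), aligned them with STAR 2.6.1a to hg38 and counted GENCODE 29 genes. The authors deposited raw counts and TPM per gene and library. TPM divides by transcript length, which 3' reads do not follow. From the deposited counts, CPM of the library total and fits with edgeR 4.0.16 (R 4.3.3; TMM, filterByExpr on cell line and target, quasi-likelihood test, Benjamini-Hochberg over all genes tested, threshold 0.05) were computed here. SEs were derived from the fold change and the F statistic.

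Alternatives were DESeq2 1.42.0, limma 3.58.1 on log2(TPM + 1), other size factors, no filter, a replicate block, leaving out each library, and single siRNAs as control or treatment. The scripts were tested on simulated data. Library totals of 4528513 to 7604581 counts set the detection limit of 3 counts, which covers counting error only.

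The labels say that a replicate number marks a shared experiment batch, so numbers pair samples. Over 6 pairs of siRNAs per line, the replicate differences correlated at r = 0.0187 to 0.200 in SCaBER and -0.0184 to 0.0137 in RT112. Replicates differed beyond counting noise in each group.

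The members and the gene lists were chosen with earlier results of these data known. Besides the members and FOXA1, the genes named are up to 3 called genes per pathway list with the largest fold change in a comparison against controls or between the lines, plus the genes most like IL24 and the other members by Pearson's r. Genes named for the comparison of the FOXA1 siRNAs, the chain IL20RB in SCaBER and the marker genes were named after their values were seen. Some genes of the lists are not reported here.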

Additional observations from a re-analysis of the deposited data

Results flagged for a closer look

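In 5 of the 28 groups of 4 libraries that had any spread, 1 library stood apart from the other 3 by Dixon's test. The test's rate of about 1 in 20 holds for draws from 1 normal distribution. These groups mix 2 siRNAs and 2 batches, and some hold few counts, so the number flagged is a description. IL1A in RT112 siFOXA1 was at 12.6 CPM in siFOXA1.1 replicate 1, and the gap to the next library was 0.871 of the range. LIF was at 0.973 CPM in RT112 siControl.2 replicate 2 and at 2.17 CPM in SCaBER siFOXA1.1 replicate 2, each the highest of its group. IL15 in RT112 siFOXA1 was counted in siFOXA1.1 replicate 1 alone, at 0.293 CPM, which is under the limit of 3 counts. IL15 in SCaBER siFOXA1 was lowest in siFOXA1.1 replicate 1, at 0.568 CPM.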

How the results depend on the processing

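Of 513 values of tested members under the alternatives, 464 kept their direction and their side of the threshold, 25 lost the call, 7 gained one and 17 changed sign. Where no cause is given, the cause was not tested. The number of members called in RT112 under siFOXA1.1 went from 1 to 0 with limma, with the replicate block and with siControl.1 alone, and under siFOXA1.2 from 1 to 0 with limma and with siControl.2 alone. With both siRNAs pooled it went from 0 to 1 in RT112 with siFOXA1.1 alone or siFOXA1.2 alone, and for siFOXA1.1 against siFOXA1.2 in SCaBER with DESeq2, limma or no filter. Members are not counted in the SCaBER comparisons with the controls, which chose the set. Between the lines it went from 4 to 7 with no filter and, in an alternative chosen after seeing the data, with the filter set per siRNA, since more members were then tested. Both counts include members at 0 in RT112, from whose calls nothing is read. Leaving out 1 library gave 0 to 1 called for siFOXA1.1 and for siFOXA1.2 in RT112, between the control siRNAs in RT112 and between the FOXA1 siRNAs in SCaBER (1 without siFOXA1.1 replicate 1).

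IL1RN in RT112 under siFOXA1.1 changed sign with limma (-0.012) and with siControl.1 alone (-0.46), and IL1B with siControl.2 alone (0.54). With siFOXA1.1 alone in place of both siRNAs, IL1B was at -0.44 and IL1RN at 0.32 in RT112. Between the FOXA1 siRNAs in SCaBER, IL1RN was at 0.10 with limma. Leaving out 1 library gave ranges that cross 0 for IL1B in RT112 under siFOXA1.1 (-0.81 to 0.30) and under both siRNAs (-0.36 to 0.72), for IL1A (-0.54 to 0.22) and IL1RN (-0.71 to 1.00) between the FOXA1 siRNAs in SCaBER, for IL1A between the control siRNAs in RT112 (-6.70 to 0.62) and for IL1RN between those in SCaBER (-0.51 to 0.22). IL1RN between the lines was at -0.52 with limma (adjusted p = 0.261), where the median of all genes was 0.32.

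With the replicate block, IL1A in RT112 under siFOXA1.1 lost its call (2.89, adjusted p = 0.0640 by edgeR), the count of members called there became 0, and IL1RN between the FOXA1 siRNAs in SCaBER changed sign without a call (0.11). The block changed no other call of a member. It moved the number of genes called from 13 to 0 and from 1 to 0 for both siRNAs pooled in RT112 and SCaBER, and from 8 to 35 between the control siRNAs in SCaBER.

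Genes called by DESeq2, limma and with no filter numbered 430, 72 and 376 against 245 for siFOXA1.2 in RT112, 170, 4 and 123 against 13 for both siRNAs there, and 468, 78 and 449 against 283 between its control siRNAs. In SCaBER they numbered 23, 1 and 42 against 5 for siFOXA1.2, 37, 2 and 213 against 1 for both siRNAs, 966, 276 and 863 against 577 between the FOXA1 siRNAs, and 75, 0 and 91 against 8 between the control siRNAs. For the effects between the lines they numbered 781, 620 and 732 against 430, and 30, 0 and 66 against 6. Library totals gave 5 in place of 13, siControl.2 alone 141 in place of 245, and siControl.1 alone 707 in place of 1102 for siFOXA1.1 in SCaBER. Higher calls for siFOXA1.1 in RT112 were 47.9% of calls, 36.9% with library totals (median of all genes -0.15) and 21.3% with limma (-0.29). Depth limits IL36G, LIF, IL15, IL7 and, in SCaBER, FOXA1, whose counts were near the limit.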

Other observations

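Genes most like the other members over all 16 libraries, by Pearson's r of deviations from the line mean among 13701 genes, were FIGN for IL1A (r = 0.876), VKORC1L1 for IL1B (r = 0.826), TNK2 for IL1RN (r = 0.886) and OLFML3 for IL6 (r = 0.917). IL6 was at 0 throughout RT112, so all its spread came from SCaBER. These are descriptions over libraries that share siRNAs and batches.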
